A study of Mus musculus with 8 samples.

Results

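Homeobox genes of the Hox, Lhx, Dlx, Nkx, Irx, Meis, Pbx and Pou families and of the sine oculis family (such as Six4 and Six5) were followed in RNA-seq of 2 regions of the adult mouse brain, the hippocampus and the pre-frontal cortex (PFC). The members were taken by gene name alone. In the table of 34620 gene names, 113 names began with one of these family names, 3 were left out, and 110 remained. Of these, 98 were classed by name as homeobox genes, and the annotation held a coding transcript for 97 and a recognizable homeobox for 96 of them. Another 6 were antisense or opposite-strand RNAs named after such a gene, and 4 were second records of a name that the table lists again with a numeric suffix. The remaining members were a related sequence and Pou2af1, which codes for a cofactor of POU factors without a homeodomain.

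Each region was sequenced as 4 libraries, and each library held total RNA of tissue pooled from 2 mice. The labels give the mice as C57Bl6, 7 to 9 weeks old and untreated, and the study's methods describe them as males from Jackson Laboratories, in one passage with a higher age range. The number of mice in those methods is enough for 1 set of pools, so the regions appear to share animals, but which libraries share a pool is not stated. Ribosomal RNA was removed before amplification, so RNAs without a long poly(A) tail could also be read. The values are normalized counts, the reads of a gene divided by a size factor of the library, and they do not correct for gene length.

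A homeobox is a stretch of DNA that codes for the homeodomain, a fold of helices whose last helix lies in the major groove of DNA and reads the bases there. The Hox genes lie in 4 clusters and set position along the body axis and in the hindbrain and spinal cord, whereas Dlx, Nkx, Lhx, Irx and sine oculis genes pattern parts of the forebrain and of other organs. POU factors carry a second DNA-binding domain, LIM homeodomain (Lhx) factors carry zinc-binding LIM domains, and the Meis and Pbx proteins, which share a loop extension in the homeodomain (TALE), bind DNA together with Hox and other homeodomain proteins.

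The homeoboxes of 4 members are shown because 3 of them belong to the genes that differed between the regions and the last belongs to Hoxa2, the Hox gene with the most reads. They were cut from the coding transcripts of GENCODE M1 on build NCBIM37 and run 5′ to 3′. The capitals mark the 18 bases that code for the tryptophan, phenylalanine, any residue, asparagine, any residue, arginine signature of the recognition helix.
Meis2 (chr2:115694503-115825941, minus strand, 189 bases in 3 exons): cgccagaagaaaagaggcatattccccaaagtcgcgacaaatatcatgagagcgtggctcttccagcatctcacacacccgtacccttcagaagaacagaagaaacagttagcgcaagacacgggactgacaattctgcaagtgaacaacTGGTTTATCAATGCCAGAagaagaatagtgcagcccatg
Pbx3 (chr2:34033815-34068776, minus strand, 189 bases in 3 exons): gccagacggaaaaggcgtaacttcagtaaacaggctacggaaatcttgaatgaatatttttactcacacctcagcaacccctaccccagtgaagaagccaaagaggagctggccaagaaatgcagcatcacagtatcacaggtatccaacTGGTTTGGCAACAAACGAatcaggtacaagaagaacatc
Lhx9 (chr1:140728160-140729416, minus strand, 180 bases in 2 exons): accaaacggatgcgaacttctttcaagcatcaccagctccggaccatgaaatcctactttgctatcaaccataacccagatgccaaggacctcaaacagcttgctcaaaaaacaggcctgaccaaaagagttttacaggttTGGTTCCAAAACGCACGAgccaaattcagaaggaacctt
Hoxa2 (chr6:52113410-52113589, minus strand, 180 bases in 1 exon): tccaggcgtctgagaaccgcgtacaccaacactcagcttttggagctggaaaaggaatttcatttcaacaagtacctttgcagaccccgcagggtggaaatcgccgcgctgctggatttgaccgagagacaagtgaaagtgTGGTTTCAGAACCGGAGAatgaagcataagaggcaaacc
Coordinates give the first and last base on the genome, introns included. Meis2 and Pbx3 have the longer homeobox of the TALE class, whose 9 extra bases code for the 3 residues of the loop. Between them 50.8% of the bases and 42.9% of the residues were identical. The homeobox of Meis2 shared 84.1% of its bases with that of Meis1 and 82.0% with that of Meis3. The homeobox of Pbx3 shared 82.5% with Pbx2 and 79.4% with Pbx4. Over whole coding transcripts no stretch of 75 bases, the read length, was shared with a transcript of another gene, in 6722 such stretches of Meis2, 3779 of Pbx3 and 5442 of Lhx9. Reads of these 3 genes could therefore be told apart from those of their paralogs at full length and without mismatch.

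The libraries held 3164964 to 16636500 reads in genes, so 3 reads, the floor used here, were worth between 1.30 and 6.93 normalized counts. Hippocampus replicate 2 stood apart from the other 3 of its group, with an array weight (limma's estimate of how closely a library follows its group) of 0.287 against 0.667 to 3.01. Of all 19789 genes with a mean of at least 1, 1124 (5.68%) passed an adjusted p of 0.05 in limma. Marker lists were set beside the labels, but they were chosen with earlier results of these data known and are no independent check. Of 12 hippocampal neuron genes 10 were called, each higher in hippocampal libraries. Of 11 cortical layer genes 7 were called higher in PFC libraries and 1 the other way. By the same test the PFC libraries also held more RNA of 13 of 14 genes of striatal projection neurons and of 5 of 10 olfactory bulb genes, and the hippocampus libraries more of 8 of 10 choroid plexus genes and of 4 of 11 thalamus and habenula genes. In bulk tissue, fewer cells of a type and less RNA per cell cannot be told apart.

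Most members were silent in both regions. With silence set at a mean under 1 normalized count over the 8 libraries, 67 of the 110 members (60.9%) were silent, beside 42.8% of all gene names and 27.9% of the 22125 protein-coding names. No read at all was listed for 37 members. The other 43 members were not silent, 19 of them with a mean of at least 20 and 11 with a mean of at least 100. By family, the share ran from none of the Dlx, Meis and Pbx members to every Hox member.

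**Figure D1:**
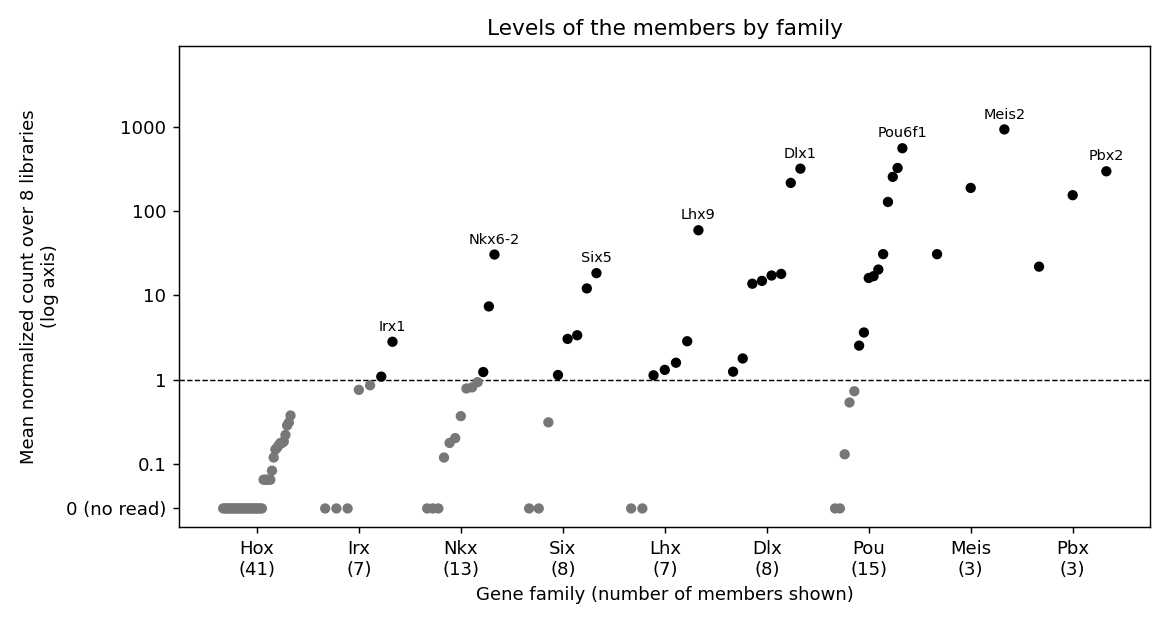
Mean normalized count over the 8 libraries (log axis, with members without a read set at the bottom) for 105 of the 110 members, by family, with the number of members shown under each name. Grey points lie under the silent level of 1 (dashed line) and black points above it; all 41 Hox names lie under it, and the highest member shown is named in each other family, from Irx1 at 2.83 to Meis2 at 924.

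The Hox clusters gave almost no reads. All 41 Hox names, which are 39 genes and 2 antisense RNAs, were silent, and 24 of them had no read in any library. Together they took 24 of 67562236 reads, or 0.355 per 1000000, with an exact (Clopper-Pearson) 95% interval of 0.228 to 0.529 that covers counting error only. The hippocampus gave 14 Hox reads of 41452611 (0.338 per 1000000, interval 0.185 to 0.567) and the PFC 10 of 26109625 (0.383, interval 0.184 to 0.704). Hippocampus replicates 1 to 4 held 0, 4, 9 and 1 Hox reads, and PFC replicates 1 to 4 held 2, 2, 2 and 4. A count of 0 in hippocampus replicate 1, the deepest library, allows up to 3 reads. No difference between the regions was detectable at this depth.

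The reads that did fall in Hox genes were spread over 17 names. The highest mean was that of Hoxa2, which in the mouse gives the second branchial arch its identity, at 0.378 normalized counts from 3 reads in 3 libraries. Hoxa7 followed with 0.312 and Hoxb7 with 0.289. Hoxa3 had a mean of 0.223, Hoxd8 of 0.186, and Hoxb4 and Hoxb9 of 0.179 each. Hoxc8 had 0.157, Hoxd11 0.120, and Hoxd1 and Hoxc11 0.0656 each. Each of these means came from 1 or 2 reads. The Hoxa cluster took 11 of the reads, Hoxb 5, Hoxc 2 and Hoxd 6.

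The genes without a read included the Hox genes of the hindbrain segments Hoxb1, Hoxb2 and Hoxb3 and the genes of the 5′ ends of the clusters Hoxa13, Hoxb13 and Hoxc13, which act at the tail end of the body axis. Reads that overlap 2 genes are left out by the counter's default, which bears on genes that share exon bases with a neighbour. That share was 67.4% for Hoxd4, 49.4% for Hoxb2, 40.4% for Hoxb8, 38.6% for Hoxa11, 37.9% for Hoxb3 and 35.8% for Hoxd3, so a level of these genes can be listed too low.

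Outside the clusters most neighbouring genes were expressed, but not the even-skipped homeobox genes at their edges. On NCBIM37 the Hoxa cluster lies at chr6:52105366-52210874, Hoxb at chr11:96055630-96229570, Hoxc at chr15:102751534-102867274 and Hoxd at chr2:74506367-74603200. Evx2, 8449 bases from the Hoxd cluster, had a mean of 0.625 normalized counts, and Evx1, 52618 bases from Hoxa, 0.192. Further out, Mtx2, a mitochondrial membrane gene 60660 bases from Hoxd, had 294.5, and Lnp, an endoplasmic reticulum gene 88875 bases away on the other side, 452. Skap2, an adaptor protein gene next to Hoxa, had 72.2. Next to Hoxc the DNA repair gene Smug1 had 112 and the heterochromatin protein gene Cbx5 3503. Beside Hoxb the nearest genes were low as well, with 6.52 for Ttll6, 0 for Calcoco2 and 7.70 for Skap1. Gm17649, 283 bases from Hoxc, was listed at 0 too.

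Genes of the factors that keep or lift Hox silence were read in both regions, and none passed the threshold. Of 22 Polycomb subunit genes, whose proteins hold Hox clusters silent, 0 were called in either direction by limma, edgeR or DESeq2 and 0 had an unadjusted p under 0.05, and their median log2 fold change was 0.08 beside 0.00 over all genes tested. Ezh2, the methyltransferase of histone H3 lysine 27, had 94.8 normalized counts in hippocampal tissue and 86.5 in the PFC, and its relative Ezh1 had 522 and 439. Of 10 Trithorax and H3K27 demethylase genes, which act against Polycomb, 0 were called by any of these tools and 1 had an unadjusted p under 0.05 in limma. Of all genes 16.9% had such an unadjusted p. A p that misses the threshold does not show that levels were the same.

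Outside the Hox clusters 26 of 69 members were silent. In the Irx family, which patterns the neural plate and the heart, Irx2, Irx2.1, Irx3, Irx4 and Irx6 were silent. In the Nkx family 10 of 14 members were, namely Nkx1-1, Nkx1-2, Nkx2-3, Nkx2-4, Nkx2-5, Nkx2-6, Nkx2-9, Nkx3-2, Nkx6-1 and Nkx6-3. Among them are the cardiac factor Nkx2-5 and Nkx6-1, a factor of motor neurons and of pancreatic beta cells. Of the POU names, Pou1f1, the pituitary factor, Pou4f2 and Pou4f3, factors of retinal ganglion and inner ear hair cells, Pou5f1, the pluripotency factor Oct4, and Pou2af1 were silent. The silent names of the sine oculis and LIM families were Six6, Six3.1, Six3os1, Lhx8 and Lhx8.1.

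Some of these zeros cannot be read as silence. The table lists 19 names again with a suffix, and in 9 of these pairs both records were at 0 and in 8 more one of them was. Zhx2 was listed at 0 in both of its records. Irx2, Lhx8, Six3 and Six3os1 have such a double record, so a low value in any of their 8 records does not show that the gene was silent. Of these records 6 are among the 67 silent members and 2, Six3 and Six3os1.1, among the tested ones. Near the limit of silence, Nkx1-2 had a mean of 0.938, Irx6 of 0.863 and Nkx2-9 of 0.814, while Irx5 had 1.09, Lhx3 1.13 and Six2 1.14. These 6 members rested on 5 to 13 reads in all, so their side of the limit is a matter of a few reads.

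Per length, some of the Meis, Pbx and POU genes led the members, but not all of them, with Pbx4 at 7.42 and Meis1 at 4.16 normalized counts per kb. Divided by the kilobases of annotated exon, Meis3 reached 103 normalized counts per kb, beside a median of 24.2 over 19567 tested genes with a known exon length. Pou6f1 had 93.3 per kb, Pou3f3 with 82.7, Pbx2 with 81.0 and Meis2 with 77.8. Dlx1, a factor of GABAergic interneurons and striatal neurons, had 58.7 and Pou3f1 42.5. Pbx3 stood at 24.0 per kb and Lhx9 at 10.7. In this order Meis3 passed Meis2, whose higher count came with 11872 exon bases against 1820.

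Of the 43 members tested, 3 (6.98%) differed between the regions, which is near the 5.68% of all genes. Meis2 and Pbx3 were higher in the PFC (background 3.13% of genes) and Lhx9 was higher in the hippocampus (background 2.55%). Groups that did not overlap were found for 4 members (9.30%), these 3 and Dlx2, where 11.8% of all genes showed no overlap (5.54% higher in hippocampal libraries and 6.27% in PFC libraries). The test was limma on log2(normalized count + 1), two-sided, with Benjamini-Hochberg adjustment over the 19789 genes. A positive log2 fold change means a higher level in the hippocampus. On the recovered reads edgeR called 5 members, 1 of them higher in hippocampal libraries, beside 5.91% of all genes (2.78% with a higher hippocampal and 3.13% with a higher PFC level). DESeq2 called 6, again 1 higher in hippocampal libraries, beside 7.39% (3.36% and 4.04% in the same order). Without hippocampus replicate 2 limma called 5 members higher in the PFC, with Dlx2 (adjusted p = 0.020), Dlx6as1 and Pou6f1 added, and 6.23% of all genes were called in that direction in this fit. Without PFC replicate 1 it also called 5, with Dlx5 and Pou3f4 among those added, and Six4 was then called higher in hippocampal libraries, beside 2.93% of all genes called higher in PFC libraries and 2.61% in hippocampal ones.

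**Figure D2:**
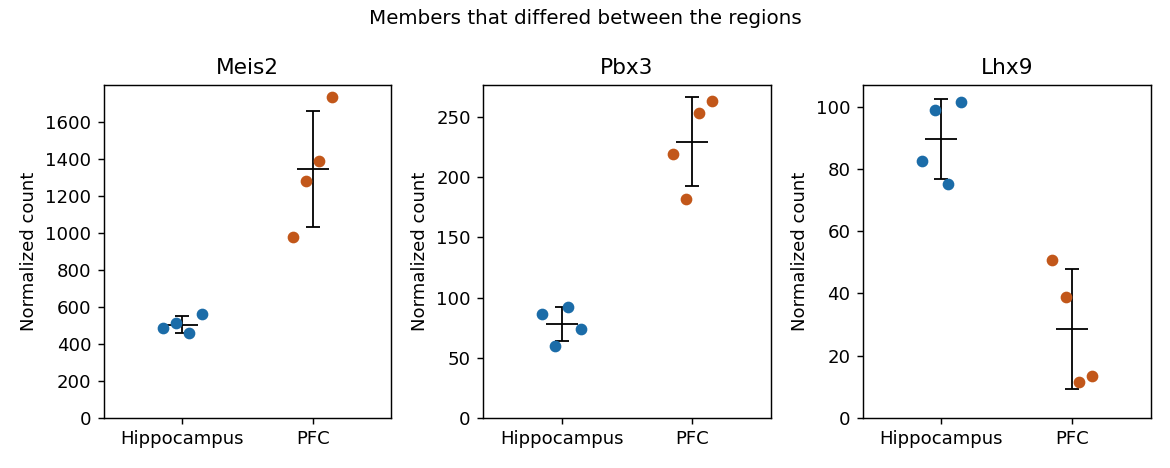
Normalized counts of Meis2, Pbx3 and Lhx9 in each library (points, 4 per region), with the mean (long bar) and SD (error bar) of each region. The 4 PFC libraries lie above the 4 hippocampus libraries for Meis2 and Pbx3 and below them for Lhx9.

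Meis2, a TALE cofactor that in mice marks the lateral ganglionic eminence and the striatal neurons it gives rise to, had 482.5, 513.8, 456.4 and 561.4 normalized counts in hippocampus replicates 1 to 4. In PFC replicates 1 to 4 it had 979, 1278, 1386 and 1736. Every PFC library lay above every hippocampus library, and the spread within the PFC was the wider one. The means were 504 ± 45.1 (SD, n = 4) and 1345 ± 312 (SD, n = 4), a 2.67-fold difference. The log2 fold change was −1.39 (SE 0.14, 95% interval −1.69 to −1.09, limma adjusted p = 2.43e-05). The gene lies on the minus strand at chr2:115688800-115891575 of NCBIM37 and shares no exon base with another gene.

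Pbx3, a TALE partner of Meis and Hox proteins, was lower in level and moved the same way. Hippocampus replicates 1 to 4 had 86.1, 59.7, 91.9 and 73.9 normalized counts and PFC replicates 1 to 4 had 219.8, 182.0, 253.5 and 263.6. The lowest PFC library was still well above the highest hippocampus library. The means were 77.9 ± 14.3 (SD, n = 4) and 229.7 ± 36.9 (SD, n = 4), 2.95-fold apart. The log2 fold change was −1.55 (SE 0.18, 95% interval −1.93 to −1.18, limma adjusted p = 5.78e-05). Pbx3 lies on the same chromosome and strand as Meis2, at chr2:34026977-34228660, and its exons are its own.

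Pbx2, Pbx4, Meis1 and Meis3 did not pass the threshold. Pbx2 had 294 ± 47.5 in hippocampal tissue and 296 ± 23.1 in the PFC (SD, n = 4 each), and the 95% interval of its log2 fold change, −0.31 to 0.27, leaves room for small differences in either direction. Pbx4, known from the testis in mice, had 20.6 ± 3.51 and 23.2 ± 5.69 (SD, n = 4 each).

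Meis1 had 25.97, 14.4, 21.5 and 25.4 normalized counts in hippocampus replicates 1 to 4 and 44.6, 21.3, 47.3 and 45.7 in PFC replicates 1 to 4. PFC replicate 2 lay within the hippocampus values and the other PFC libraries above them, and the limma adjusted p was 0.18 at a log2 fold change of −0.80. Of its exon bases 12.1% are shared with another gene. Meis3 had 176 ± 45.8 and 199 ± 29.9 (SD, n = 4 each).

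Of 6 partners of the TALE proteins that are not members, 2 were called, both higher in PFC libraries, beside 3.13% of all genes. Pknox2, which codes for a TALE protein that binds Pbx, had 182 normalized counts in hippocampal tissue and 301 in the PFC (log2 fold change −0.69, limma adjusted p = 0.020). Mkx, an Iroquois-like TALE gene known from tendons, had 65.1 and 115 (−0.79, limma adjusted p = 0.013). Tgif1, for a TALE repressor, had 15.5 in hippocampal and 9.96 in PFC libraries (0.63, limma adjusted p = 0.41), with no overlap between the groups. The median over the 6 was 0.05, beside 0.00 over all genes tested.

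**Figure D3:**
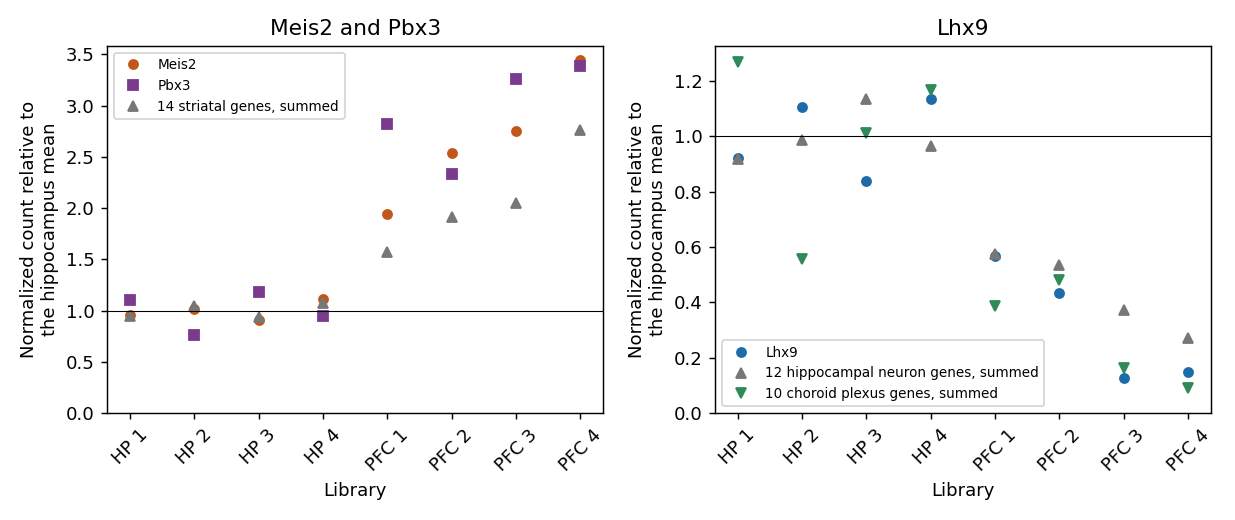
Normalized counts in each of the 8 libraries relative to the mean of the 4 hippocampus (HP) libraries, for Meis2 and Pbx3 with the sum of 14 striatal genes (left) and for Lhx9 with the sums of 12 hippocampal neuron genes and 10 choroid plexus genes (right). The cortical layer and interneuron sums, which were also higher in the PFC, are not drawn. Meis2 and the striatal sum were lowest in PFC 1 and highest in PFC 4 among the PFC libraries (1.94 and 3.45 against 1.58 and 2.77), Pbx3 was lowest in PFC 2 (2.34), and Lhx9 was higher in PFC 1 and 2 (0.566 and 0.434) than in PFC 3 and 4 (0.128 and 0.15).

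Markers of striatal projection neurons lay higher in PFC libraries as well. All 14 genes of that list had a higher mean in the PFC, and 13 of them were called. The summed level ran from 2337 to 2680 normalized counts in hippocampal tissue and from 3938 to 6914 in the PFC. Within the PFC the sum was 3938, 4792, 5136 and 6914 in replicates 1 to 4, the order in which Meis2 lay as well, whereas Pbx3 was lowest in PFC replicate 2. Adora2a, an adenosine receptor gene of striatal neurons, had 22.4 normalized counts in hippocampal libraries and 138 in PFC libraries (log2 fold change −2.46), and Drd1a, the D1 dopamine receptor, 54.0 and 258 (−2.20). Of 10 olfactory bulb genes 5 were called, all higher in PFC libraries, and the list had sums of 256 to 567 in hippocampal tissue and 596 to 703 in the PFC. Other lists lay higher in the PFC too. The cortical layer sum was 5348 to 6152 in hippocampal tissue and 10217, 10930, 13059.5 and 12488 in PFC replicates 1 to 4. Of its 11 genes 7 were called higher in the PFC and 1 the other way, beside 3.13% and 2.55% of all genes. The interneuron sum was 12382.5 to 13456 in hippocampal tissue and 15994 to 19056 in the PFC. The part of these tissues and cell types in the differences of Meis2 and Pbx3 was not tested.

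Lhx9, a LIM homeodomain factor known in the mouse from the thalamus, the pineal gland and the gonads, was the member that was higher in the hippocampus. It had 82.7, 99.1, 75.1 and 101.6 normalized counts in hippocampus replicates 1 to 4, and 50.7, 38.9, 11.5 and 13.4 in PFC replicates 1 to 4. The groups did not overlap, and the PFC libraries fell into a higher and a lower pair. The means were 89.6 ± 12.8 and 28.6 ± 19.3 (SD, n = 4 each), a 3.13-fold difference. The log2 fold change was 1.86 (SE 0.38, 95% interval 1.06 to 2.67, limma adjusted p = 0.0066). Without the trend of the variance with abundance the limma adjusted p was 0.11. Lhx9 lies at chr1:140721763-140745153 on the minus strand, with no exon base shared.

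The PFC libraries with more Lhx9, replicates 1 and 2, also held more RNA of other lists that were higher in the hippocampus. The summed hippocampal neuron genes were 10666, 9928, 6935 and 5073 normalized counts in PFC replicates 1 to 4, against 17070 to 21112 in the hippocampus. This list holds 1 member, Pou3f1. The choroid plexus sum was 2439, 3031, 1034 and 575 in the PFC against 3527 to 8012 in the hippocampus. The oligodendrocyte sum, in which 10 of 10 genes were higher in the hippocampus, was 83603, 81903, 60276 and 57428 in the PFC. Thalamus and habenula genes summed to 828, 929, 788 and 744 in the PFC and to 1082 to 1247 in the hippocampus. The part of these tissues in the level of Lhx9 was not tested.

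Among the other Lhx members, Lhx1, a factor of Purkinje cells and of spinal neurons, had a mean of 2.86 normalized counts, and Lhx4, a pituitary and motor neuron factor, 1.59. Among 10 LIM cofactor and LMO genes, whose proteins bind the LIM domains, 2 were called, both higher in PFC libraries, beside 3.13% of all genes. The list's median was −0.07 beside 0.00 for all genes. Lmo4, a LIM-only protein of cortical neurons, had 1015 in hippocampal tissue and 1453 in the PFC (log2 fold change −0.52, limma adjusted p = 0.011), and Ldb2, a LIM domain binding protein, had 458 and 632 (−0.46, limma adjusted p = 0.020).

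**Figure D4:**
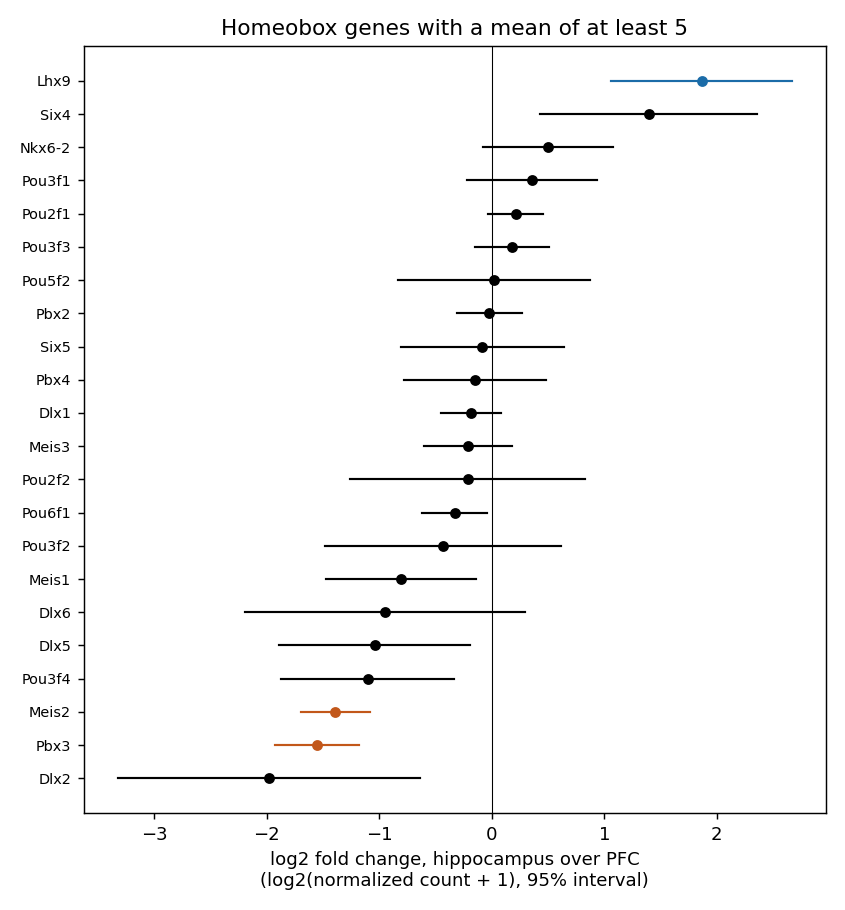
log2 fold change, hippocampus over PFC, on the scale log2(normalized count + 1), with its 95% interval, for 22 homeobox genes with a mean of at least 5. Blue and orange mark genes past the threshold, Lhx9 at 1.86, Meis2 at −1.39 and Pbx3 at −1.55, and black marks the rest.

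Over all tested members, with the 3 called ones included, more leaned to the PFC. Of the 43, 26 had a log2 fold change below 0 and 17 above 0, with a median of −0.21 beside 0.00 over all genes tested. Unadjusted p-values under 0.05 were found for 13 members (30.2%), 11 of them higher in the PFC, where 16.9% of all genes had one (8.19% with a higher hippocampal and 8.74% with a higher PFC level). Of these 13, 10 did not pass the adjusted threshold. The members share cell types and loci and are not independent of each other.

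The Dlx family includes genes that drive the fate and migration of GABAergic neurons of the ganglionic eminences. All its members were above the silent level, but Dlx3 (mean 1.25, 9 reads) and Dlx4 (1.79, 16 reads) lay near it. Dlx1 had 276, 304, 268 and 337 normalized counts in hippocampus replicates 1 to 4 and 323, 306, 325 and 395 in PFC replicates 1 to 4, groups that overlapped (log2 fold change −0.19, 95% interval −0.45 to 0.08). Its neighbour Dlx2, on the same chromosome, had 8.66, 7.70, 8.40 and 0 in hippocampal tissue and 27.7, 21.3, 10.0 and 26.2 in the PFC. These groups did not overlap, but the limma adjusted p was 0.087 at a log2 fold change of −1.98 (95% interval −3.33 to −0.64), and the 0 of hippocampus replicate 4 allows up to 6.93. Without hippocampus replicate 2, which was not the library at 0, the limma adjusted p was 0.020. DESeq2 on the recovered reads gave Dlx2 an adjusted p of 0.020 and edgeR 0.056.

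Dlx5 had 10.4, 6.74, 15.2 and 11.6 normalized counts in hippocampal tissue and 10.8, 22.6, 30.1 and 36.3 in the PFC (limma adjusted p = 0.18). PFC replicate 1 lay among the hippocampus values, and without it the limma adjusted p was 0.040. Dlx5 passed in only 1 of 19 alternative fits. Leaving out the library that overlaps the other group favours a lower p, so this is no support for a difference. Dlx6as1, the long non-coding RNA that runs against Dlx6 and is known as Evf2, was far more abundant than Dlx6 itself in counts, with 186 ± 46.3 in hippocampal tissue and 244 ± 32.2 in the PFC (SD, n = 4 each, limma adjusted p = 0.20), while Dlx6 had 11.5 ± 10.3 and 18.2 ± 8.70. Hippocampus replicate 2 was the highest of its group in Dlx6as1, and without it the limma adjusted p was 0.0057. That fit called 2224 of all genes against 1124 in the main one, and Dlx6as1 passed in 2 of 19 alternative fits. No exon length was at hand for Dlx6as1, so the levels of these RNAs were not compared per length. Their overlap was not at hand either. Counting ignored strand and left out reads that overlap 2 genes, so either RNA can be listed too low. The summed Dlx level was 533 ± 69.3 normalized counts in hippocampal tissue and 664 ± 74.2 in the PFC.

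Among 11 interneuron genes the defining GABA synthesis gene Gad1 had 1296 normalized counts in hippocampal tissue and 1403 in the PFC and did not pass (limma adjusted p = 0.72). Gad2, for the other GABA synthesis enzyme, had 1703 and 2260 (log2 fold change −0.42, limma adjusted p = 0.11), and Slc32a1, for the vesicular GABA transporter, 143 and 210 (−0.53, limma adjusted p = 0.070). Npy (log2 fold change −1.06), Vip (−0.98) and Cck (−0.62), which code for neuropeptides, were called higher in the PFC, beside 3.13% of all genes. In the other direction 0 of the 11 were called, beside 2.55%. The list's median was −0.36.

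Of the POU genes, which include the class III factors of neural progenitors and upper cortical layers, 11 were tested and none passed the threshold in limma. Of the 11, 3 had an unadjusted p under 0.05 in limma, beside 16.9% of all genes. edgeR and DESeq2 each called 1, beside 5.91% and 7.39% of all genes. Pou6f1, the most abundant, had 493 ± 97.5 normalized counts in hippocampal tissue and 613 ± 60.4 in the PFC (log2 fold change −0.33, limma adjusted p = 0.21). Without hippocampus replicate 2 its limma adjusted p was 0.0082, and it passed in 2 of 19 alternative fits. Pou2f1, the broadly expressed Oct1, had 347 ± 15.2 and 299 ± 25.9 (0.21, limma adjusted p = 0.38), with 22.5% of its exon bases shared with Cd247. Pou3f3 (Brn1) had 270 ± 60.1 and 236 ± 29.6. All SDs here are over 4 libraries per region.

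Pou3f1, a marker of CA1 pyramidal neurons, had 130, 227, 162 and 71.6 in hippocampus replicates 1 to 4 and 143, 91.7, 110 and 87.4 in PFC replicates 1 to 4. Both the highest and the lowest value were in the hippocampus, and the groups overlapped (limma adjusted p = 0.59). Pou3f2 (Brn2) had 15.5 ± 7.27 and 25.0 ± 19.5 normalized counts (SD, n = 4 each).

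Pou3f4 (Brn4), a factor of the striatum and the inner ear in mice, had 29.4, 8.66, 22.6 and 18.5 in hippocampal tissue and 24.6, 42.7, 43.0 and 57.2 in the PFC (log2 fold change −1.10, limma adjusted p = 0.098). Without PFC replicate 1, its lowest PFC library, the limma adjusted p was 0.048, the only pass in 19 alternative fits. Such an omission favours a lower p. Hippocampus replicate 1 lay above PFC replicate 1, and the other PFC libraries lay above all hippocampus libraries. The summed POU level was 1346 ± 237 normalized counts in hippocampal tissue and 1395 ± 63.1 in the PFC.

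Of the Nkx genes, Nkx6-2, a gene of oligodendrocytes, had 35.6 ± 3.84 in hippocampal tissue and 25.4 ± 6.37 in the PFC (SD, n = 4 each, limma adjusted p = 0.39).

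The sine oculis and Irx genes were low. Six4, a muscle and sensory placode factor, had 14.3, 23.1, 11.6 and 20.8 normalized counts in hippocampal tissue and 13.8, 6.28, 2.86 and 4.03 in the PFC. Only PFC replicate 1 reached into the hippocampus values, and the log2 fold change was 1.40 (95% interval 0.43 to 2.36, limma adjusted p = 0.094). Without that library, an omission that favours a lower p, the limma adjusted p was 0.025. Six4 passed in 2 of 19 alternative fits. Six5, next to the myotonic dystrophy kinase gene, had 17.6 ± 4.39 and 19.1 ± 7.03 (SD, n = 4 each). Irx1 had a mean of 2.83 over the 8 libraries. Of 6 partners of the sine oculis proteins, 0 were called by limma, edgeR or DESeq2. Beside 16.9% of all genes, 2 of the 6 had an unadjusted p under 0.05 in limma. These were Dach1, a corepressor gene, with 31.5 normalized counts in hippocampal and 16.0 in PFC libraries (log2 fold change 0.98, limma adjusted p = 0.098), groups that did not overlap, and Eya1, a coactivator gene, with 187 and 132 (0.50, limma adjusted p = 0.16).

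Other homeobox genes of the forebrain that are not members were called in both directions. Of 30 tested, 4 were higher in hippocampal libraries and 5 in PFC libraries, beside 2.55% and 3.13% of all genes. Cux2, an upper-layer factor, had 236 normalized counts in hippocampal libraries and 589 in PFC libraries (log2 fold change −1.29). Isl1, a factor of striatal and cholinergic neurons, had 1.79 and 10.7 (−2.18). Otx2, a factor of the choroid plexus that is also in that marker list, had 28.7 and 8.22 (1.90). The median of the 30 was −0.19. Of 6 Groucho corepressor genes, whose proteins bind many homeodomain factors, Tle1 was higher in the hippocampus (437 against 313, log2 fold change 0.48, limma adjusted p = 0.015).

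How firmly a lack of a call can be read depends on depth. The 95% interval of the log2 fold change lay within 1 on either side of 0 for 13 of the 43 tested members. Another 15 members had a mean under 5 normalized counts, and for these a difference was not detectable at this depth unless it was large.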

How the data were processed

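Total RNA of 4 hippocampus and 4 PFC libraries was sequenced after removal of ribosomal RNA and amplification from random and poly(A) primers. The authors trimmed reads at a Phred score of 28 (FastX-Toolkit 0.0.13) and mapped them to NCBIM37 (TopHat2 2.0.9). HTSeq 0.6.0 then counted reads for each gene name, without regard to strand, and DESeq gave the size factors for division. The version of DESeq is not given in the sources used here. The deposited signal is this normalized read count per gene and library. FPKM values from Cufflinks 2.1.1 were not used here.

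Whole reads were recovered from the smallest step of each library, and 100% of the values were within 1e-06 of a whole number. Depth and floors are given with the results. Amplified reads are not independent molecules, so intervals and floors cover counting error only.

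Genes with a mean of at least 1 were tested with limma 3.58.1 (trend, two-sided) on log2(normalized count + 1), which draws fold changes of low genes toward 0. Benjamini-Hochberg adjustment ran over 19789 genes, and the threshold was 0.05. On the recovered reads edgeR 4.0.16 (quasi-likelihood) called 1170 genes and DESeq2 1.42.0 called 1463. The scripts were tested on simulated data. Scripts ran in R 4.3.3 and Python 3.11.15 (scipy 1.17.1, numpy 2.4.6, matplotlib 3.10.9, pandas 2.3.3). The regions appear to share mice, but no source used here says that equal replicate numbers mark a shared pool. The deviations of same-numbered libraries from their group means correlated at −0.13, −0.09, 0.03 and 0.02. The regions were therefore compared without a block. These correlations cannot show that the libraries are unpaired, so the pairing is unresolved. P-values measure the spread between these pools.

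Gene names were matched to GENCODE M1 for positions, exon lengths and classes (104 of 110 members). The members and the 24 gene lists were chosen with earlier results of these data known. Named were the members past the threshold, those with a mean of at least 20, the 3 highest of each family (Hox genes by cluster), the 3 nearest to the silent level on each side, silent members by name, and of each list up to 4 genes with the largest changes. Members named outside this rule, such as Dlx2, Dlx3, Dlx4 and Dlx6, and list genes such as Ezh1, Ezh2, Gad1, Gad2, Slc32a1, Tgif1, Dach1 and Eya1, were chosen after their values were seen. Results that rest on some members and list genes are not reported here. The alternatives were the count models, 2 pseudocounts, 2 filters, TMM and quantile scaling, array weights, no variance trend, a replicate block, other silent levels and leaving out each library.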

Additional observations from a re-analysis of the deposited data

Results flagged for a closer look

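Among 58 groups of 4 libraries, 8 held a library far from the other 3, where chance gives about 1 in 20 for normally distributed values. In the hippocampus, replicate 2 had 255.0 normalized counts of Dlx6as1 against 155 to 170 in the others, and 29.8 of Nkx6-2 against 37.0 to 37.8. In the PFC, replicate 2 had 21.3 of Meis1 against 44.6 to 47.3, and 338 of Pou2f1 against 281 to 289. The remaining groups are of genes for which 1 hippocampus library had reads and the others none. Such a group always meets the rule, so the 1 in 20 does not apply to it. Replicate 1 had 0.866 normalized counts of Lhx4, 0.866 of Six2 and 2.60 of Lhx3. Replicate 2 had 13.5 of Six3, from 14 reads, where the floor of that library is 2.89, and Six3 is a name with a double record.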

How the results depend on the processing

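Meis2 and Pbx3 kept their direction and stayed past the threshold in all 19 alternatives with a fit, with log2 fold changes of −1.53 to −1.26 and −1.66 to −1.40 and adjusted p-values of at most 0.020 and 0.017. Lhx9 did so in 18 (1.54 to 2.22) and lost the call without a variance trend (limma adjusted p = 0.11). That fit left 2 members called, both higher in PFC libraries and 0 in hippocampal ones, beside 222 of all 19789 genes. It had 13 members at an unadjusted p under 0.05, and the share of all genes at that level was not at hand for it. Array weights gave 2 members higher in hippocampal tissue and 7 in the PFC, in a fit that called 2441 of all 19789 genes. In the PFC direction edgeR called 4 and DESeq2 5, beside 3.13% and 4.04% of all genes. Leaving out each library gave 1 to 2 members higher in hippocampal tissue and 2 to 5 in the PFC, with 5 in the PFC without hippocampus replicate 2 and 5 without PFC replicate 1, and 2 in the hippocampus without PFC replicate 1. With the replicate block, which takes equal numbers as a shared pool, 1 member was called in hippocampal tissue and 2 in the PFC, and 729 genes in all. The silent count of 67 became 37 when a silent member may have no read, and lay between 60 and 76 at the other settings. Of 536 refits of 29 named members, 17 newly passed the threshold, 1 lost it and 14 turned in sign, in 6 members far from the threshold. The log2 fold change of Pbx2 became 0.0040 in edgeR, that of Irx1 0.28 with array weights, and that of Six3, a name with a double record, 0.13 in edgeR and 0.0099 in DESeq2. Leaving out single libraries gave −0.10 to 0.067 for Pbx2, −0.80 to 0.0012 for Pou3f2, −0.15 to 0.40 for Irx5, −0.24 to 0.13 for Six5 and −1.44 to 0.16 for Six3. All genes called numbered 1124, 2441 with array weights, 222 without a variance trend and 575 to 2224 without single libraries, the last without hippocampus replicate 2. The cause of these changes was not tested.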
